A study of Mus musculus with 10 samples.

Results

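The Schlafen genes were taken as the 8 members Slfn1, Slfn2, Slfn3, Slfn4, Slfn5, Slfn8, Slfn9 and Slfn14, found by gene symbol among the 55359 genes measured. All 8 were detected, and all 8 reached the mean of 0.1 FPKM required for testing, as 18746 genes did. FPKM is the number of sequenced fragments scaled to gene length and to library depth. RNA had been sequenced from lineage-negative (Lin-) bone marrow cells, which are left after mature blood cells are removed with a lineage depletion kit. There were 5 libraries of Dhx9f/f mice (WT) and 5 of Dhx9f/f;MX1 mice (cKO), and by the study's convention n counts individual mice. All 10 mice carried floxed alleles of Dhx9, a helicase that unwinds RNA and DNA. In the cKO mice Cre is driven by the Mx1 promoter, which responds to interferon, so deletion is not restricted to 1 blood lineage. The labels give the genotype of these libraries as Dhx9 knock down. Deletion was induced by intraperitoneal poly(I:C), a synthetic double-stranded RNA that sets off an interferon response, and by the general methods mice were taken a week after the first dose. The sources used here do not say whether the sequenced WT mice also received poly(I:C), so an effect of poly(I:C) and one of the genotype cannot be told apart. The age of these mice was not given in the sources used here.

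The targeted gene went against its label: Dhx9 was at 65.43 to 72.42 FPKM in the libraries labelled WT and at 130.82 to 156.49 FPKM in those labelled cKO, so groups are called by their labels throughout. Depth recovered from the values was 15042950 to 18712650 fragments per library labelled WT and 13838900 to 17190800 per library labelled cKO. Xist, which is transcribed from an inactive X chromosome, was at least 99.19 FPKM in WT 3, 4 and 5 and at most 0.09 FPKM in the other 7 libraries, so the groups also differed in the apparent sex of the mice, which the labels do not give. The progenitor gene Kit was at 36.56 to 54.36 FPKM in the libraries labelled WT and at 18.73 to 31.11 FPKM in those labelled cKO. Markers of mature cells were present in both groups. The summed FPKM of 14 erythroid markers was 1210 to 2320 in the libraries labelled WT and 4120 to 7060 in those labelled cKO. For 13 monocyte and macrophage markers the sums were 1070 to 1860 and 11.1 to 336. In bulk RNA, fewer cells of a type and less RNA per cell cannot be told apart.

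Schlafen proteins share an N-terminal domain with nuclease activity in several members and are sorted by length. Slfn1 and Slfn2 are short, Slfn3 and Slfn4 are intermediate, and Slfn5, Slfn8, Slfn9 and Slfn14 are long, with a C-terminal part that resembles a helicase. Many of the family are induced by type I interferon, and they are known for restraining the proliferation of T cells and myeloid cells and for cutting transfer RNA. Interferon acts through receptors and JAK kinases on transcription factors that bind the interferon-stimulated response element (ISRE) in target promoters.

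The members lie side by side on chromosome 11 of GRCm39, in a cluster of 335453 bp from 82842100 to 83177552. In order along the chromosome these are Slfn5 (82842100 to 82855666, plus strand), Slfn9 (82868552 to 82882656, minus), Slfn8 (82892984 to 82911669, minus), Slfn2 (82955609 to 82961504, plus), Slfn1 (83007615 to 83013496, plus), Slfn4 (83066012 to 83081042, plus), Slfn3 (83082123 to 83109101, plus) and Slfn14 (83165936 to 83177552, minus). Their coding sequences have 337 codons in Slfn1, 378 in Slfn2, 602 in Slfn4, 640 in Slfn3, 884 in Slfn5, 899 in Slfn14 and 910 in each of Slfn8 and Slfn9. Slfn8 and Slfn9 have 92.7% identical bases in their aligned coding sequence, Slfn3 and Slfn4 92.1%, and Slfn1 and Slfn2 70.2%. Another gene lies among these genes, Slfn10 (82918956 to 82958140, minus strand), whose span reaches into that of Slfn2 on the other strand and which RefSeq lists as the pseudogene Slfn10-ps. It has 927 codons in the annotation used here, and its coding sequence has 93.1% identical bases with Slfn9 and 92.8% with Slfn8.

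An ISRE core, searched on both strands as GAAA, any 2 bases and GAAA again, was found in the 250 bases before the start of the canonical transcript of 3 of the 8 members (Slfn5, Slfn8 and Slfn9). For 7 members that start is the first base of the gene given above. For Slfn5 it is 82842928, inside the gene, so its window overlaps exons of longer Slfn5 transcripts. Of 12877 promoters of tested protein-coding genes, 412 (3.2%) held it, as did 13 of the 35 interferon-stimulated targets tested. The promoters of Slfn8 and Slfn9 are shown whole because these neighbours share the element in the same letters, and Slfn5 is shown as the 30 bases around its match. Capitals mark the ISRE core and, in Slfn9, also a GATA motif (AGATAA on the other strand). All are written 5′ to 3′ on the strand of the gene, and they are chr11:82911670-82911919 (minus strand), chr11:82882657-82882906 (minus strand) and chr11:82842763-82842792 (plus strand) of GRCm39.
Slfn8: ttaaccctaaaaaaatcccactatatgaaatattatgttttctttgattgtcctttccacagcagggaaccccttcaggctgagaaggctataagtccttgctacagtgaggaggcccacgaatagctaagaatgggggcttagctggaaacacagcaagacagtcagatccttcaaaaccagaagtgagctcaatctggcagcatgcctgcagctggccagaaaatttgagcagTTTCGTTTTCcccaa
Slfn9: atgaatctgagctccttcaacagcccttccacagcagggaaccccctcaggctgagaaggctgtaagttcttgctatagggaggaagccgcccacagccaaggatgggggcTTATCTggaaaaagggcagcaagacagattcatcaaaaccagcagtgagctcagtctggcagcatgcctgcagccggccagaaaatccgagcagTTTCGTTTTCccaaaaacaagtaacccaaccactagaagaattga
Slfn5: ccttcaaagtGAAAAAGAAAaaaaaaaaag

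The match begins 15 bases before the canonical start of Slfn8, 45 bases before that of Slfn9 and 155 bases before that of Slfn5. Over 220 aligned bases, 182 (82.7%) are the same in the windows of Slfn8 and Slfn9. In RefSeq promoters (GRCm38.p6, 250 bases before to 50 after the start), all 8 members were matched by symbol and the same 3 held the element, against 1079 of 27025 genes (3.99%). The other motifs were also searched on both strands. The gamma-activated sequence TTCNNNGAA, known from interferon gamma targets, was in the window of 0 of 8 members and in 6.82% of all promoters. The GATA motif AGATAA, bound by the GATA factors of erythroid and megakaryocytic cells, was in those of Slfn2 and Slfn9 and in 7.7% of all promoters. GAGGAAGT, a PU.1 motif, and TGTGGTTT, a RUNX motif, were in 0 of the 8 windows and in 2.26% and 1.27% of all promoters. Matches are given as letters in a window, not as bound sites.

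Across the family, 3 of 8 members passed the test as lower in the libraries labelled cKO (Slfn2, Slfn5 and Slfn8) and 0 of 8 as higher. A gene was called at an adjusted p under 0.05 (limma with Benjamini-Hochberg adjustment over all 18746 genes) and a fold change of at least 2. By the same rule 16.8% of all genes tested were called lower and 4.6% higher. Slfn2, Slfn5 and Slfn8 were also the members whose groups did not overlap, with all 5 libraries labelled cKO below all 5 labelled WT, as held for 21.6% of all genes tested. The median log2 change was -1.27 over the members and -0.11 over all genes tested. Fold changes are given on the scale of log2(FPKM + 0.1), cKO minus WT, which understates the change of low genes.

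**Figure D1:**
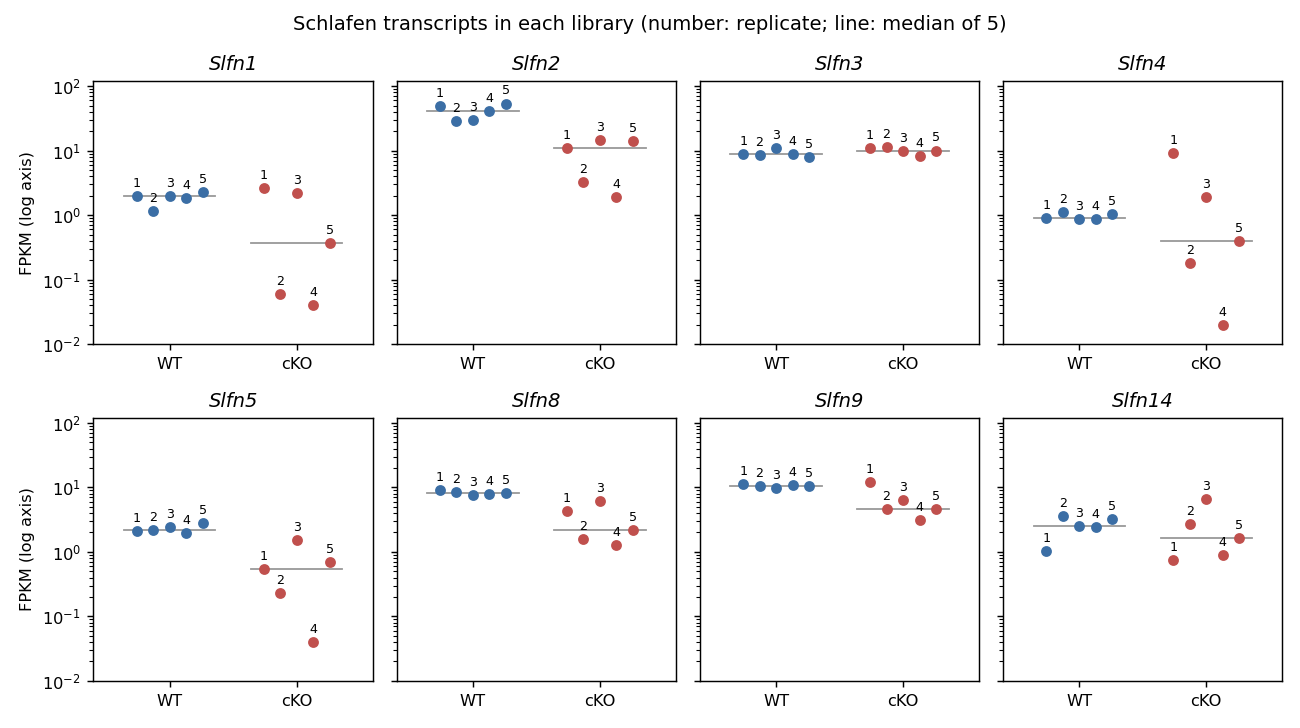
FPKM of the 8 Schlafen genes (log axis) in each of the 5 libraries labelled WT and the 5 labelled cKO. Points are libraries marked with their replicate number, and lines are group medians. Slfn2, Slfn5 and Slfn8 do not overlap between the groups, Slfn3 stays between 7.97 and 11.58 FPKM throughout, and Slfn4 in cKO runs from 0.02 to 9.28 FPKM.

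Among the short members, Slfn2 had the highest level of the family in WT and was called lower. Slfn2 (ENSMUSG00000072620) keeps T cells and monocytes quiescent and is one of the genes the study named from these same libraries, so its direction here is not independent evidence. The study reports that quantitative reverse transcription PCR of the genes it named bore out their fall. Those PCR values were not examined here. Slfn2 was at 48.85, 29.03, 29.43, 40.6 and 53.78 FPKM in WT 1 to 5 and at 11.12, 3.32, 14.83, 1.93 and 13.89 FPKM in cKO 1 to 5. Every library labelled cKO lay below every library labelled WT, and cKO 2 and cKO 4 lay furthest below. The mean fell from 40.3 ± 11.2 to 9.02 ± 6.01 FPKM (SD, n = 5 each), a ratio of 4.47. The log2 change was -2.49 (standard error 0.532, 95% interval -3.67 to -1.32) with a limma adjusted p of 0.00311. The two-sided exact permutation test over libraries gave p = 0.00794, the smallest that 5 against 5 allow.

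Slfn1 (ENSMUSG00000078763), the founding member, whose forced expression stops T cells from growing, was far less abundant. It was at 1.96, 1.16, 2.01, 1.84 and 2.32 FPKM in WT and at 2.64, 0.06, 2.24, 0.04 and 0.37 FPKM in cKO 1 to 5. The libraries labelled cKO were split: cKO 1 was above all of WT, cKO 3 was within the WT range, and the others were below it. By gene length, the low values stand for about 2 fragments in cKO 2, 1 in cKO 4 and 12 in cKO 5, of which the first and second are under the floor of 3 fragments. The mean was 1.86 ± 0.429 FPKM in WT and 1.07 ± 1.27 FPKM in cKO, and the log2 change of -1.71 (standard error 0.814, 95% interval -3.51 to 0.08) did not pass the test (limma adjusted p = 0.11). Without cKO 1 it was -2.27 (limma adjusted p = 0.0294), and without cKO 3 it was -2.22 (limma adjusted p = 0.0435), and in each case Slfn1 was then called lower.

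Neither intermediate member passed the test, and their spreads were unlike. Slfn3 (ENSMUSG00000018986), studied for its part in the differentiation of intestinal cells, was at 8.83, 8.5, 10.94, 8.73 and 7.97 FPKM in WT and at 11.18, 11.58, 9.99, 8.38 and 10.05 FPKM in cKO. Its 10 values overlapped closely. The mean was 8.99 ± 1.14 FPKM in WT and 10.2 ± 1.25 FPKM in cKO. With a log2 change of 0.18 (standard error 0.111, limma adjusted p = 0.201), it did not pass the test, and the 95% interval of -0.06 to 0.43 holds no change of 2-fold or more.

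Slfn4 (ENSMUSG00000000204), a gene of activated macrophages and other myeloid cells, was even across WT and scattered across cKO. In WT it was at 0.91, 1.11, 0.88, 0.86 and 1.04 FPKM, and in cKO 1 to 5 at 9.28, 0.18, 1.9, 0.02 and 0.4 FPKM. Thus cKO 1 and cKO 3 lay above all of WT and the other 3 below all of WT, and the highest of the 5 was 464 times the lowest, which was about 1 fragment. The direction depends on the scale: the mean was higher in cKO (2.36 ± 3.94 against 0.96 ± 0.109 FPKM), while the log2 change was -0.41 (standard error 0.969, 95% interval -2.55 to 1.73, limma adjusted p = 0.76). It was 0.27 without cKO 4 and -1.30 without cKO 1.

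Of the long members, Slfn5 and Slfn8 fell. Slfn5 (ENSMUSG00000054404), a nuclear member that takes part in interferon responses, was at 2.1, 2.21, 2.41, 1.93 and 2.82 FPKM in WT and at 0.54, 0.23, 1.51, 0.04 and 0.7 FPKM in cKO. No value in cKO reached the lowest in WT, and cKO 3 came closest. The mean went from 2.29 ± 0.342 to 0.604 ± 0.568 FPKM, a ratio of 3.8, with a log2 change of -2.19 (standard error 0.54, 95% interval -3.38 to -1.0, limma adjusted p = 0.00686, exact permutation p = 0.00794). About 4 fragments stand behind the value in cKO 4. Of its annotated exon bases, 19.8% lie opposite the antisense gene Slfn5os, which was listed at 0 in all libraries but WT 5 (0.06 FPKM). Whether strand was used in counting is not given in the sources used here, so reads of both strands there cannot be told apart.

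Slfn8 (ENSMUSG00000035208) was at 8.97, 8.4, 7.49, 7.88 and 8.17 FPKM in WT and at 4.26, 1.59, 6.18, 1.26 and 2.15 FPKM in cKO. Again cKO 3 was nearest to WT and cKO 4 furthest from it, with no overlap. The mean went from 8.18 ± 0.556 to 3.09 ± 2.09 FPKM, a ratio of 2.65. Its log2 change was -1.62 (standard error 0.368, 95% interval -2.43 to -0.81, limma adjusted p = 0.00444, exact permutation p = 0.00794).

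Slfn9 (ENSMUSG00000069793), the near-copy next to it, was at 11.17, 10.67, 9.89, 10.82 and 10.57 FPKM in WT and at 12.03, 4.57, 6.43, 3.16 and 4.61 FPKM in cKO. In WT the values lay closer together than those of any other member on the log2 scale (SD 0.06). In cKO, 4 libraries lay below all of WT and cKO 1 lay above all of WT. The log2 change of -0.93 (standard error 0.282, 95% interval -1.55 to -0.30) passed the adjusted p (limma, 0.02) and not the fold limit, so Slfn9 was not called. Without cKO 1 it was -1.20 (limma adjusted p = 4.22e-04) and called lower.

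Slfn14 (ENSMUSG00000082101), a ribosome-bound nuclease whose variants cause an inherited platelet disorder, was at 1.02, 3.63, 2.48, 2.47 and 3.23 FPKM in WT and at 0.74, 2.67, 6.49, 0.89 and 1.63 FPKM in cKO. The groups overlapped. The means were 2.57 ± 0.997 and 2.48 ± 2.37 FPKM, and the log2 change was -0.36 (standard error 0.543, 95% interval -1.56 to 0.84, limma adjusted p = 0.62). In WT it varied more on the log2 scale than the other members did (SD 0.68), with WT 1 lowest. The summed FPKM of 10 megakaryocyte markers was lowest in WT 1 too, at 298 FPKM, where WT 2 to 5 had 795 to 1350 FPKM. In cKO 1 to 5 the sum was 193, 88.2, 118, 107 and 170 FPKM, highest in cKO 1, where Slfn14 was lowest. While the mean of Slfn14 hardly differed between the groups, 10 of the 10 markers were called lower in cKO. Their part in the level of Slfn14 was not tested.

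**Figure D2:**
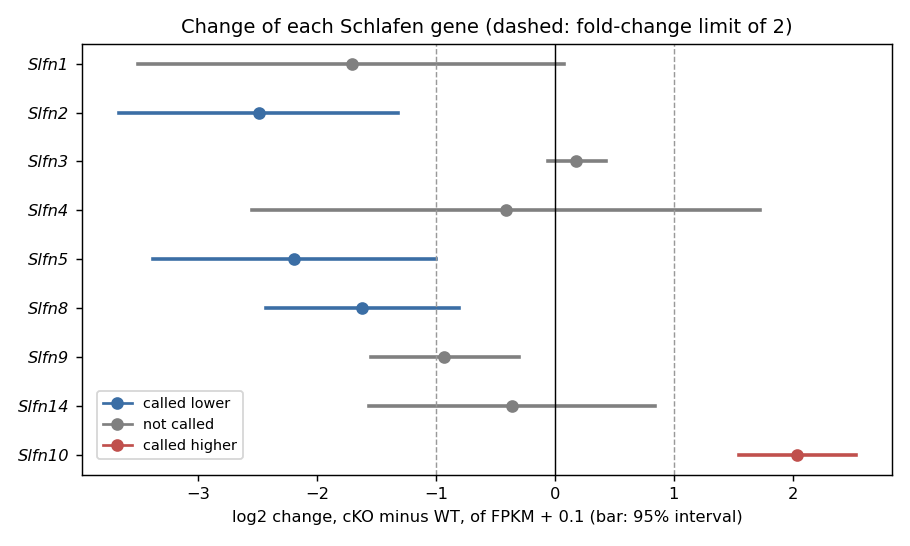
Log2 change, cKO minus WT, of FPKM + 0.1 for the 8 members and Slfn10, with 95% intervals from limma. Dashed lines mark the fold limit of 2. Slfn2, Slfn5 and Slfn8 are called lower, Slfn10 is called higher, and the interval of Slfn4 is the widest, from -2.55 to 1.73.

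The groups also differed in the order of the levels. FPKM is per length, but the gene lengths behind it are not given in the sources used here. Reads of near-copies may also be split, so the order between genes is approximate. In WT the order of mean FPKM was Slfn2, Slfn9, Slfn3, Slfn8, Slfn14, Slfn5, Slfn1 and Slfn4. Neighbours in this order whose ranges did not overlap were Slfn2 and Slfn9, Slfn8 and Slfn14, and Slfn1 and Slfn4. In cKO the order was Slfn3, Slfn2, Slfn9, Slfn8, Slfn14, Slfn4, Slfn1 and Slfn5, and the ranges of all neighbours overlapped. The summed FPKM of the 8 members was 75.8 ± 11.1 in WT and 35 ± 15.7 in cKO. Slfn2 made up 52.4% ± 7.16 of that sum in WT and 23.7% ± 12 in cKO, and Slfn3 made up 12.2% ± 2.97 and 34.5% ± 15.2 (SD, n = 5 each).

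The libraries labelled cKO differed among themselves more than those labelled WT. The SD of log2(FPKM + 0.1) was larger in cKO for 8 of 8 members, as it was for 68.8% of all genes tested. Members below all of WT numbered 4 in cKO 1, 6 in cKO 2, 4 in cKO 3, 7 in cKO 4 and 6 in cKO 5. Members above all of WT were 4 in cKO 1 (Slfn1, Slfn3, Slfn4 and Slfn9), 1 in cKO 2 (Slfn3), 2 in cKO 3 (Slfn4 and Slfn14) and 0 in cKO 4 and cKO 5. The 35 interferon-stimulated targets were split in the same libraries. Of these, 25 lay above all of WT in cKO 1 and 21 in cKO 3, whereas 27 lay below all of WT in cKO 2, 30 in cKO 4 and 32 in cKO 5. On the scale of log2(FPKM + 0.1), the mean difference of the targets from the WT mean was 0.45, -1.47, 0.48, -1.99 and -1.36 in cKO 1 to 5, and that of the members was -0.25, -1.85, -0.03, -2.62 and -1.20. Slfn2, Slfn5 and Slfn8 were below WT also in cKO 1 and cKO 3. Such counts per library were not made over all genes tested. A trait of these genes and a shift of whole libraries cannot be told apart by them.

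**Figure D3:**
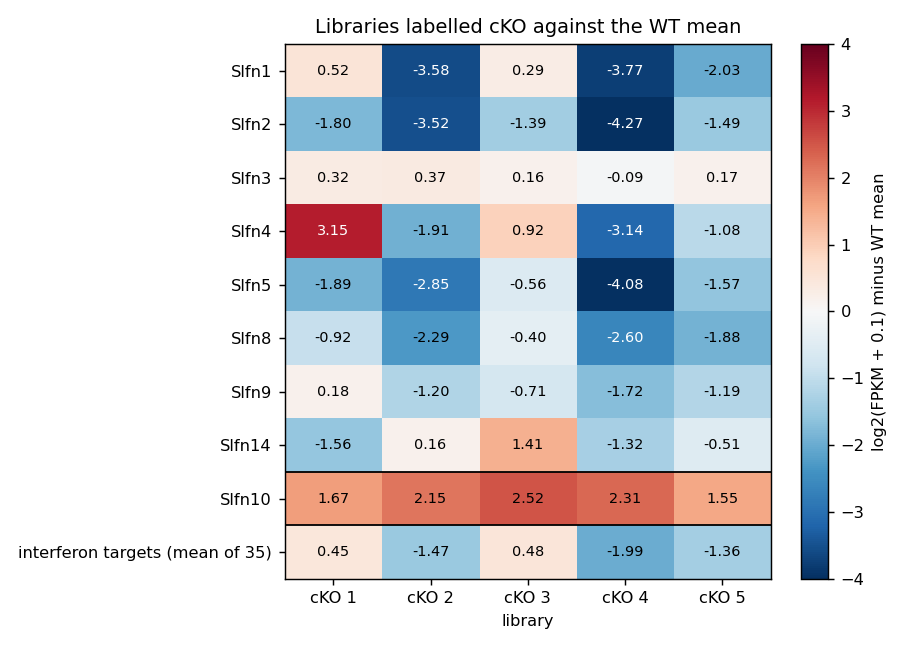
Difference of log2(FPKM + 0.1) from the WT mean in each of the 5 libraries labelled cKO, for the 8 members, Slfn10 and the mean of 35 interferon-stimulated targets. Colours run from -4 (blue) to 4 (red), and each cell gives its value. The targets are above WT in cKO 1 and cKO 3 and below it in the other 3, and Slfn10 is above WT in all 5.

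Markers of other cell types moved between the same libraries. The 13 monocyte and macrophage markers, which include Lyz2, Ly6c2 and F13a1, summed to 81, 23.9, 207, 11.1 and 336 FPKM in cKO 1 to 5, and 12 of the 13 were called lower (median log2 change -4.07). Slfn2 was lowest in cKO 4 and cKO 2, as these markers were. This was not particular to either: Slfn1, Slfn4, Slfn5, Slfn8 and Slfn9 were lowest in the same libraries. So were the sums of the neutrophil, T and NK cell and B cell markers. The 14 neutrophil markers, which include Mpo, Elane and Ctsg, summed to 2760 to 3760 FPKM in WT and to 2650, 183, 877, 150 and 1130 FPKM in cKO 1 to 5, with 6 called lower (median -1.86). The library highest in Slfn4, cKO 1, was the highest of the cKO libraries in this sum. Single markers differed. Ctsg and S100a9 were highest in cKO 1 (276.64 and 894.75 FPKM). Mpo and Elane were highest in cKO 5, at 391.92 and 247.11 FPKM, against 277.33 and 183.65 FPKM in cKO 1. For 14 T and NK cell markers, which include Nkg7, the sums were 85.9 to 112 FPKM in WT and 27.7, 10.4, 24.1, 8.13 and 33.4 FPKM in cKO 1 to 5, with 8 called lower (median -1.67). Most of each sum was Nkg7 alone, at 72.96 to 95.95 FPKM in WT and at 6.3 to 24.95 FPKM in cKO. For 9 B cell markers the sums were 27.6 to 35.8 and 0.87 to 8.59 FPKM, with 4 of 7 tested called lower. In WT most of the B cell sum was Dntt, at 16.42 to 20.92 FPKM, against 0.0 to 1.56 FPKM in cKO. For 8 mast cell and basophil markers the sums were 674 to 1350 and 82 to 579 FPKM, with 6 called lower and 1 higher. For 10 stem and progenitor markers they were 96 to 131 and 23.1 to 47.7 FPKM, with 8 called lower. Of the 14 erythroid markers, 8 were called higher and 0 lower (median 1.58). No marker of these lists was at 0 in all libraries, and their part in the Schlafen changes was not tested.

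Members of the same length class were compared with each other in 4 pairs. Each pair had an exact permutation test of the log2 ratio of the 2 genes within a library, adjusted over the 4 pairs. The log2 change of Slfn8 was below that of Slfn9 (difference -0.69, exact permutation p = 0.0476, adjusted p = 0.0952). For Slfn5 against Slfn14, the long genes at the ends of the cluster, the difference was -1.83 (exact permutation p = 0.0159, adjusted p = 0.0635). For the short genes Slfn1 against Slfn2 it was 0.78 (exact permutation p = 0.238, adjusted p = 0.317), and for the intermediate Slfn3 against Slfn4 it was 0.60 (exact permutation p = 0.611, adjusted p = 0.611). No pair passed after adjustment. In WT the ratio of Slfn8 to Slfn9 was held within an SD of 0.05 on the log2 scale (mean -0.37), and in cKO its SD was 0.59 (mean -1.07).

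Slfn10, which is no member, lies on the minus strand from beyond Slfn8 into the start of Slfn2, and it moved the other way. It was at 4.05, 2.96, 3.02, 2.91 and 1.96 FPKM in WT and at 9.44, 13.25, 17.12, 14.76 and 8.69 FPKM in cKO. All 5 libraries labelled cKO were above all 5 labelled WT, including those in which Slfn8 and Slfn9 were lowest. The mean rose from 2.98 ± 0.74 to 12.7 ± 3.56 FPKM (log2 change 2.04, standard error 0.222, limma adjusted p = 1.00e-04, exact permutation p = 0.00794). Reads of Slfn8, Slfn9 and Slfn10 may be split between these near-copies, so their values are uncertain where sequence is shared. Of windows of 50 bases in their transcripts, 14.5% in Slfn8, 10.1% in Slfn9 and 16.5% in Slfn10 occurred in another Schlafen gene. At 150 bases, the length of 1 read, 1.31% of windows in Slfn9 and 2.05% in Slfn10 were shared, and 0% in each of the other members. Exons of other annotated genes overlap 26.7% of the exon bases of Slfn8, 1.22% of Slfn9 and 13.1% of Slfn10.

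The genes whose pattern over the 10 libraries was most like each member were sought among the 12345 genes averaging 1 FPKM or more. Likeness was the root mean square difference (RMS) of log2(FPKM + 0.1) after each gene was centred. Slfn9 was closest to Stat2 (RMS 0.08), then Cep85l (0.17) and Parp14 (0.19). For Slfn5 the closest were Gbp2 (0.23), Sdc3 (0.25) and H2-Q5 (0.32), and for Slfn8 Trim30a (0.22), Cnksr3 (0.30) and Gm20559 (0.30). For Slfn1 they were Ddx60 (0.52), C5ar1 (0.58) and Gm20519 (0.60). In all, 5 of these 24 genes (20.8%) were on an interferon list, against 41 of 12345 candidates (0.332%). Ddx60, Gbp2, Trim30a and Parp14 are interferon-stimulated, and Stat2 carries the interferon signal. These are descriptions over libraries that share depth and cell makeup, with no test.

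The other members lay nearest to genes outside those lists. For Slfn2 these were Xdh (0.18), the enzyme that makes uric acid, Aoah (0.18), which inactivates bacterial lipopolysaccharide, and Slc8b1 (0.21). For Slfn4 they were S100a9 (0.30), Retnlg (0.52) and Cd177 (0.53), all known from neutrophils. S100a9 was at 894.75, 17.61, 157.68, 7.57 and 44.16 FPKM in cKO 1 to 5 and at 71.6 ± 17.5 FPKM in WT. Its order of libraries in cKO was that of Slfn4, and also that of Slfn1 and Slfn9. Slfn14 was nearest to Lat (0.44), a signalling adaptor of T cells and platelets, Hmox1 (0.46) and Pomgnt2 (0.56). Slfn3 was nearest to Traip, Sars2 and Ftl1 (0.08 each), whose levels like its own varied little.

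In the interferon pathway, ligands were close to absent from the table. Of 20 ligand genes, 17 were listed at 0 in all libraries, the other 3 (Ifnab, Ifnk and Ifng) reached at most 0.14 FPKM, and 0 were tested. Of 10 receptors and transducers tested, 2 were called lower and 0 higher (median log2 change -0.72), beside 16.8% and 4.6% of all genes tested. With median-ratio scaling, with quantile normalization, at a pseudocount of 1 or without WT 1, 0 of the 10 were called. The 2 were Ifnar1, a chain of the type I interferon receptor (13.7 ± 1.83 to 6.51 ± 0.78 FPKM, log2 change -1.05), and Ifngr2, a chain of the interferon gamma receptor (10.7 ± 1.85 to 5.13 ± 0.802 FPKM, log2 change -1.05). These stand just past the fold limit and were chosen after their values were seen. The most abundant of the list in WT were Ifngr1 (log2 change -0.73, limma adjusted p = 0.00644), Jak1 (0.32, limma adjusted p = 0.0249) and Jak2 (-0.84, limma adjusted p = 0.01), none past the fold limit.

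Of 35 interferon-stimulated targets tested, 8 were called lower and 0 higher, that is Mx1, Ifi44, Zbp1, Trim30a, Ifi27l2a, Ifi203, Gbp2 and Gbp3, with a median log2 change of -0.80 over the list. Of all genes tested, 16.8% were called lower. Without cKO 1, 15 of 35 were called lower. Of the 3 most abundant in WT, Trim30a, a ubiquitin ligase gene, fell from 23.1 ± 2.25 to 7.62 ± 5.4 FPKM (log2 change -1.90, limma adjusted p = 0.00447). Bst2, which tethers budding viruses, had a log2 change of -0.37 (limma adjusted p = 0.163), and Isg20, an exonuclease gene, one of 0.66 (limma adjusted p = 0.0192), under the fold limit. Mx1 itself was at 2.88 to 3.62 FPKM in WT and at 0.53 to 2.26 FPKM in cKO.

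Genes beside the cluster were counted over 500 kb on either side, where 25 protein-coding genes of the table lie and 20 were tested. Of the 20, 7 were called lower and 0 higher (median log2 change -0.73), beside 16.8% and 4.6% of all genes tested (median -0.11). All 7 lay on the Slfn14 side. They were the chemokine genes Ccl5, Ccl9, Ccl6, Ccl3 and Ccl4, the protease gene Mmp28 and 1700020L24Rik, of which Ccl4 is beyond the first 6 and was named after its value was seen. The nearest called gene, 1700020L24Rik, starts 150951 bp beyond Slfn14. Neighbours not called were not all unchanged: by adjusted p alone, 10 of the 20 were lower and 1 higher. Unc45b, 5794 bp before Slfn5, was too low to be tested. Thus the called members did not form 1 block with called neighbours. The span of Slfn10, which was called higher, reaches from inside Slfn2 toward Slfn8, with the start of its canonical transcript at 82931327. Slfn1, Slfn4, Slfn3 and Slfn14, none of them called, followed Slfn2.

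**Figure D4:**
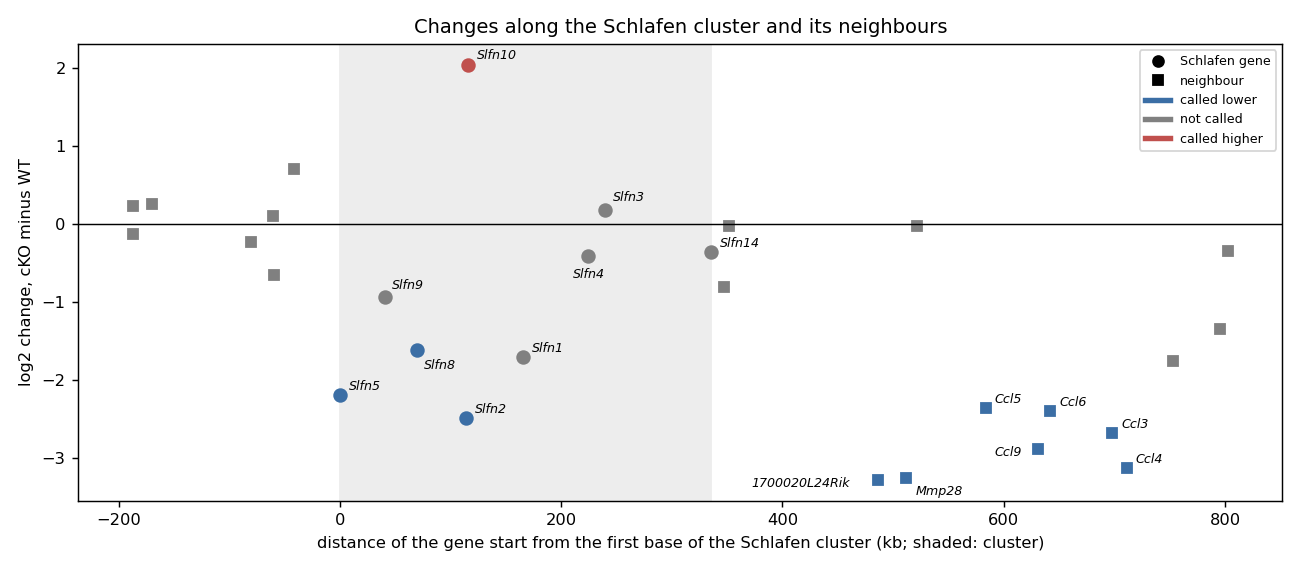
Log2 change, cKO minus WT, against the distance of each gene's start from the first base of the Schlafen cluster in kb. Circles are Schlafen genes, squares are tested neighbours within 500 kb, and shading marks the cluster. Slfn10, at 2.04, is the 1 Schlafen gene called higher and is drawn at the start of its span, close to Slfn2. The 7 neighbours called lower are at the right.

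Xist marked 3 of the 5 WT libraries and 0 of the 5 labelled cKO, so sex and group are partly confounded. In a fit with a covariate for Xist above 1 FPKM, the group term compares the libraries labelled cKO with WT 1 and WT 2 alone and takes the spread from all 10. In this fit the log2 change was -2.44 for Slfn2 (limma adjusted p = 0.0312) and -1.71 for Slfn8 (limma adjusted p = 0.0298), and both were called lower. Slfn5 was not called (log2 change -2.12, limma adjusted p = 0.0561). The other members, none of them called, were at -1.47 for Slfn1, 0.23 for Slfn3, -0.48 for Slfn4, -0.97 for Slfn9 and -0.09 for Slfn14.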

How the data were processed

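RNA of Lin- bone marrow cells was sequenced as 150-base read pairs from 5 WT and 5 cKO libraries. Per the study's methods and the submitters' processing notes, the authors trimmed reads (cutadapt 1.9.1), aligned them to GRCm39 with HISAT2 2.0.1, listed HTSeq 0.6.1 and deposited gene FPKM with 2 decimals. The annotation release, gene lengths and strand setting are not given in the sources used here. The authors tested counts with DESeq2, which cannot be run on FPKM.

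Groups came from the titles. FPKM were tested as log2(FPKM + 0.1) with limma 3.58.1 (trend, two-sided) in R 4.3.3 over the 18746 genes averaging 0.1 FPKM or more, adjusted by Benjamini-Hochberg, and called where the adjusted p was under 0.05 and the fold change 2 or more. Single genes and pairs were tested by exact permutation (scipy 1.17.1, Python 3.11.15). The steps were tested on simulated data. Members and lists were chosen with earlier results of these data known. The study's methods set the thresholds.

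Depth was recovered from genes with 1 annotated transcript, where 95.9% to 96.3% of values up to 20 fragments were whole within 0.2. A floor of 3 fragments was 0.16 to 0.217 FPKM for a gene of 1 kb. This covers counting error only. No 2 libraries of a group were alike within sampling noise (lowest chi-square per degree of freedom 5.58). Of the identifiers, 54749 of 55359 were in the annotation used here (GENCODE, GRCm39), which gave positions, coding sequences and the 250 bases before the start of each canonical transcript. RefSeq promoters are of GRCm38.p6. The marker genes Vpreb1 and Ahsp were not analysed here, and the values of 1 of the 25 neighbours counted are not reported here.

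Genes named were the 8 members, Slfn relatives, Dhx9, sex-linked genes, the 3 most abundant of a list in WT, the nearest and the first 6 called neighbours, and the 3 genes most like a member. Slfnlnc was added after its values were seen. Alternatives were other pseudocounts (0.01 and 1), other filters (none, or 1 FPKM), 3 scalings (median ratio, equal library sums, quantiles), eBayes without a trend, a replicate block, an Xist covariate, adjusted p alone and leaving out each library. A sign-flip test of pairs by replicate number was added after seeing the data.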

Additional observations from a re-analysis of the deposited data

Results flagged for a closer look

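Among 24 groups of 5 values (12 Schlafen-named genes in each genotype), 4 had a library that stood apart from the other 4 by Dixon's criterion at 0.71 of the range. Chance gives about 1.2 if values are normally distributed. The gaps were taken on FPKM, where a high value stands further apart than on the log2 scale used for the tests. Slfn4 in cKO 1 was at 9.28 FPKM, with the other 4 at 0.02 to 1.9 FPKM. Slfn3 in WT 3 was at 10.94 FPKM, with the others at 7.97 to 8.83 FPKM, a gap at the limit. Slfnlnc, a long noncoding RNA gene between Slfn3 and Slfn14, was at 79.77 FPKM in cKO 1 and at 47.17 to 51.83 FPKM in the others. Slfn5os, antisense to Slfn5, was at 0.06 FPKM in WT 5, about 3 fragments, and listed at 0 in the others. Beside values of 0 alone, any value above 0 passes this criterion.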

How the results depend on the processing

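Slfn2 and Slfn8 were called lower and Slfn10 higher under all 21 alternatives, and no member was called higher under any. The members called lower numbered 3 as reported, 5 without cKO 1 (Slfn1 and Slfn9 joined) and 3 to 5 over the libraries left out. With the Xist covariate there were 2. The log2 change of Slfn4 (-0.41) was 0.16 at a pseudocount of 1, 0.12 with quantile normalization and 0.27 without cKO 4 (-1.30 to 0.27 over libraries left out), and that of Slfn14 (-0.36) was 0.09 with quantile normalization. Quantile normalization moved the median of all genes from -0.11 to 0.10, and the calls from 3153 lower and 862 higher to 2244 and 1583, and a pseudocount of 1 gave 1486 and 356. At a pseudocount of 1 the differences were 1.63 for Slfn1 minus Slfn2 and -0.90 for Slfn5 minus Slfn14 (exact permutation, adjusted p = 0.0476 each). Slfn3 minus Slfn4 was -0.02 without cKO 4 (-0.02 to 1.45 over libraries left out). Receptors and transducers called lower (2) were 0 at a pseudocount of 1, with median-ratio scaling and with quantile normalization, and 0 to 4 over libraries left out. By adjusted p alone they were 7 lower and 1 higher. Targets called lower (8) were 5 at a pseudocount of 1 and 6 to 15 over libraries left out, and by adjusted p alone 2 were higher. Neighbours called higher were 1 by adjusted p alone. The causes were not tested.

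Replicate numbers are not stated to pair mice, so the main fit had no replicate block. Same-numbered libraries of the groups correlated at 0.117, 0.0258, -0.0103, -0.00312 and 0.0925. Of the 10 libraries, 5 correlated best with their own number in the other group, which does not settle whether the numbers pair mice. With a replicate block, Slfn2, Slfn5 and Slfn8 were the 3 members called lower, of 3107 genes lower and 857 higher. At 1 to 4 fragments, the lowest values of Slfn1, Slfn4 and Slfn5 are limited by depth.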

Other observations

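Other genes with Schlafen names were also measured. Slfnlnc was more abundant than any member, at 75.23 to 83.43 FPKM in WT and at 79.77, 47.17, 49.66, 51.83 and 49.71 FPKM in cKO 1 to 5. Its log2 change of -0.55 (limma adjusted p = 0.00485) was under the fold limit. In 4 of the 5 libraries labelled cKO it was below all of WT, and in cKO 1 it was within the WT range. Slfnl1, a Schlafen-like gene on another chromosome, was at 0 to 0.07 FPKM in WT and at 0.08 to 0.2 FPKM in cKO, at most about 6 fragments, and was too low to be tested.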
